A study of Homo sapiens with 12 samples.

Results

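The genes described are those taken by a symbol pattern for ion channel families, and in the annotation used here the pattern found 7 of 14884 named genes. They are KCNE5, KCNIP1, KCNIP2, KCNIP4, KCNRG, KCNQ1DN and KCNQ1OT1. The pattern asked for all symbols that start with KCN, which cover voltage-gated, inward rectifier, two-pore-domain and calcium- and sodium-activated potassium channels. It also asked for symbols of voltage-gated sodium and calcium channels, of glutamate, GABA, nicotinic, serotonin type 3 and P2X receptors, and of CLC and TRP channels. Symbols with a hyphen were left out. Where several rows carried 1 symbol, the brightest by its mean across the 12 arrays stood for the gene. The label ion channel genes goes further than these members: 0 of the 7 is a pore-forming subunit. Of the 7, 5 encode auxiliary or regulatory proteins of potassium channels and 2 are long non-coding RNA genes of the KCNQ1 locus. Channel genes of the pattern without a named row were not analysed here.

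The cells were HEK293, a human embryonic kidney line transformed with adenovirus DNA. The control group of 6 arrays came from cells given AllStars Negative Control siRNA, and the mimic-1825 group of 6 arrays from cells given Syn-hsa-miR-1825, a synthetic copy of the microRNA miR-1825. Both RNAs were delivered at 5 nM with HiPerfect, and total RNA was taken 24 h later for Affymetrix Human Gene 2.0 ST arrays. The series title gives the search for mRNA targets of this microRNA, linked to amyotrophic lateral sclerosis, as the purpose. All cells received a transfected RNA, no untransfected arrays were included, and the labels leave unsaid whether replicates were separate cultures; the p-values rest on the spread among these arrays alone, and that spread may be technical. In bulk RNA, fewer cells with a transcript and less of it per cell cannot be told apart.

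A microRNA pairs through its seed with sites in mRNAs and lowers their amount or translation. Voltage-gated potassium channels are pores to which smaller proteins attach. KCNIP1, KCNIP2 and KCNIP4 encode KChIPs, calcium-binding proteins of the neuronal calcium sensor family that bind A-type potassium channels, bring them to the cell surface and change how they inactivate. KCNE5 encodes a single-span membrane subunit that damps the current of certain potassium channels, and KCNRG a soluble protein that resembles the assembly domain of potassium channels and can hinder their assembly. KCNQ1OT1 is a long RNA transcribed antisense to KCNQ1 from the paternal chromosome, where it silences neighbouring imprinted genes, and KCNQ1DN is a non-coding RNA gene of the same imprinted region. HEK293 cells are widely used as hosts for cloned channels because their own currents are small.

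The mature microRNA that was delivered as a mimic is shown first because every comparison below is with it. Its sequence was taken from RefSeq (GRCh38.p14, chr20:32237830-32237847, plus strand), with bases 2 to 8, the seed, in capitals. A perfect match to this seed in a target mRNA reads GCACUGG. Transcript sequences of the 7 genes were not used here, so sites for the seed were not searched.
hsa-miR-1825: uCCAGUGCccuccucucc

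Promoters were then read from RefSeq for 6 of the 7 genes, as the 250 bases upstream of each annotated start. The dinucleotide CG, which reads the same on both strands, was counted in them. There were 10 such windows, because KCNIP1 and KCNIP2 each have 2 starts and KCNIP4 has 3. Printed below is 1 upstream window each of KCNQ1DN, the gene with the largest difference between groups, and of KCNIP4 and KCNIP1, the genes with the lowest control values. The KCNIP4 window shown has the most CG of its 3 and the KCNIP1 window the fewer of its 2. Their contrast therefore depends on the starts shown and is not a difference between the genes. CG dinucleotides are in capitals.
KCNQ1DN promoter, GRCh38.p14 chr11:2869783-2870032, plus strand: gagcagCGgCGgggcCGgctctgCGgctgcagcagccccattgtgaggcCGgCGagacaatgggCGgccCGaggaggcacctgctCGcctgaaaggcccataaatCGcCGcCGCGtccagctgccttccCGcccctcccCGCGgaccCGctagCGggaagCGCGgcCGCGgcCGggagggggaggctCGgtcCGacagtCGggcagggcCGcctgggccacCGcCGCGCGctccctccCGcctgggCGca
KCNIP4 promoter, GRCh38.p14 chr4:21948773-21949022, minus strand: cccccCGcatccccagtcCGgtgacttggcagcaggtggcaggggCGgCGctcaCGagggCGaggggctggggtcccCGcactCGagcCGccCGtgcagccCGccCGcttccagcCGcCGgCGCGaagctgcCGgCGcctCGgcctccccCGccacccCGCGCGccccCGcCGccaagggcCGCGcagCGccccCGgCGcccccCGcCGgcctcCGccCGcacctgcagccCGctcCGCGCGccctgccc
KCNIP1 promoter, GRCh38.p14 chr5:170353237-170353486, plus strand: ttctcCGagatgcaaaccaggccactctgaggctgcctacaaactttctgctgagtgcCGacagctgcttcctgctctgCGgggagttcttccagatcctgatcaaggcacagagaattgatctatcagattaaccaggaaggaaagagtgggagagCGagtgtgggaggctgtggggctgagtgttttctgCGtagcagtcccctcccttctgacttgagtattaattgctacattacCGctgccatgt

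The KCNQ1DN window held 33 CG, a number reached by 8.15% of 35116 RefSeq promoter windows of the same length. The printed KCNIP4 window held 38, reached by 3.28%, and the printed KCNIP1 window 6, reached by 61.9%. The other KCNIP4 windows held 7 and 17, the other KCNIP1 window 20, those of KCNIP2 16 and 21, and that of KCNE5 19. The window before KCNRG, which lies inside TRIM13 in RefSeq, held 1, and 93.9% of windows held at least as many. The median over all windows was 11. This is a description of letters over 6 genes, and the arrays carry no measurement of DNA at these starts.

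In control cells the 7 genes lay in the lower and middle part of the array's range. Their control means ran from 3.99 for KCNIP1 to 5.92 for KCNRG on the deposited log2 scale, where the median of all 53617 rows was 4.48 and the 75th percentile 6.28. Of the 7, 5 were at or above that median, beside 71.3% of named rows, and 0 reached the 75th percentile, beside 41.8% of named rows. Against the median of named rows alone, 5.73, KCNRG was the only 1 of the 7 above it. A row is a transcript cluster, the set of probes for a gene or transcript. Rows bind their targets with different strength, so these positions are not an order of mRNA amount. Probe intensities were not used here and no background level could be set, so a value near 4 does not show that a transcript is present. Of 35 listed markers of other cell types, 15 had a named row. Their control means ran from 2.65 to 7.95, a range that spans all 7 members. Among 3 fibroblast markers DCN stood at 2.65, THY1 at 5.30 and LUM at 5.68. The epithelial marker EPCAM stood at 7.95 and the muscle marker DES at 6.35. Of 13 listed markers linked to embryonic kidney and to this line, 8 had a named row, with control means between 5.59 and 9.74. PAX2 was the lowest of these at 5.59 and KRT18 the highest at 9.74. LHX1 stood at 6.38, EYA1 at 7.74 ± 0.11 and SALL1 at 7.82 ± 0.12, so the marker lists overlapped in level.

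**Figure D1:**
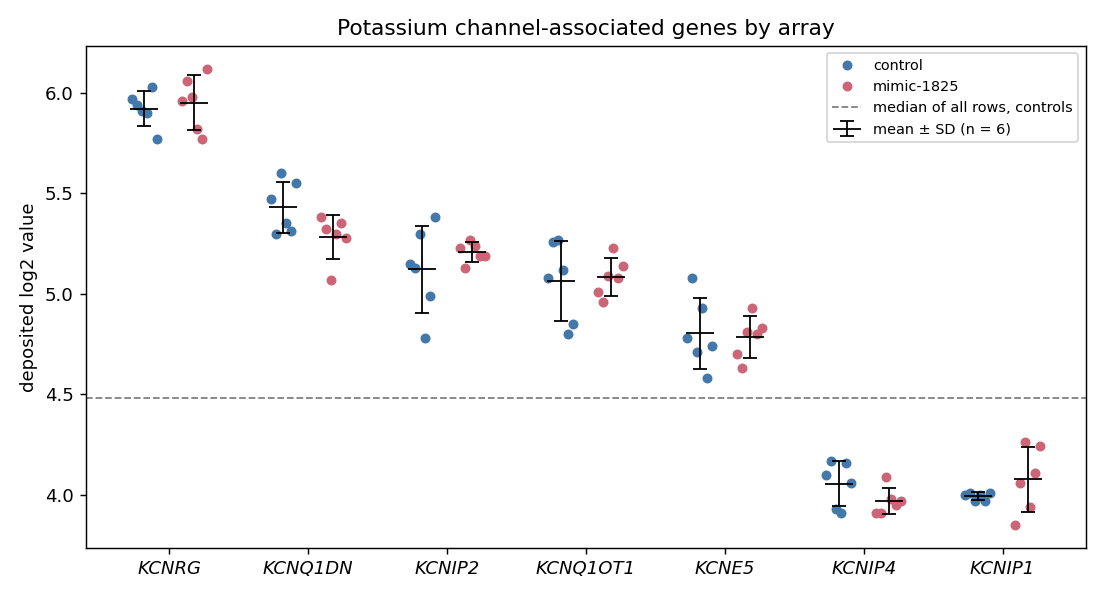
Deposited log2 value (vertical axis) of each of the 7 genes (horizontal axis) on the 6 control and 6 mimic-1825 arrays, with mean ± SD (n = 6) and the median of control means over all rows as a dashed line. KCNRG lies highest, near 5.92, and KCNIP4 and KCNIP1 lie below the dashed line at 4.48. The control and mimic ranges of every gene overlap, and for KCNIP1 the mimic points lie on both sides of the controls.

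The mimic changed 0 of the 7 genes past the threshold. With limma and Benjamini-Hochberg adjustment over all 53617 rows, 0 of 7 had an adjusted p under 0.05, beside 0.0112% of all rows, a share that rests on 6 rows and varied with the settings. Those 6 rows carried no symbol: of the 16098 named rows, 0 passed in this fit (lowest limma adjusted p = 0.128). The count of 0 therefore does not set the 7 apart from other named genes. At an unadjusted limma p under 0.05 there were 0 higher and 0 lower, beside 5.36% of all rows higher and 5.40% lower. Among the 16098 named rows, 1046 were higher and 681 lower at that level. The means of 4 genes were higher and those of 3 lower after the mimic. The median log2 difference of the 7 was 0.02, beside -0.01 over all rows. In 0 of 7 did the groups separate, beside 0.759% of all rows with every mimic array above every control and 0.414% with every one below. All 7 intervals (95%, limma) lay inside 1.5-fold either way, beside 93.8% of all rows and 15914 of the 16098 named rows. The standard errors ran from 0.06 to 0.09 on the log2 scale. These bounds are on the deposited scale, which can compress differences of rows near background.

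**Figure D2:**
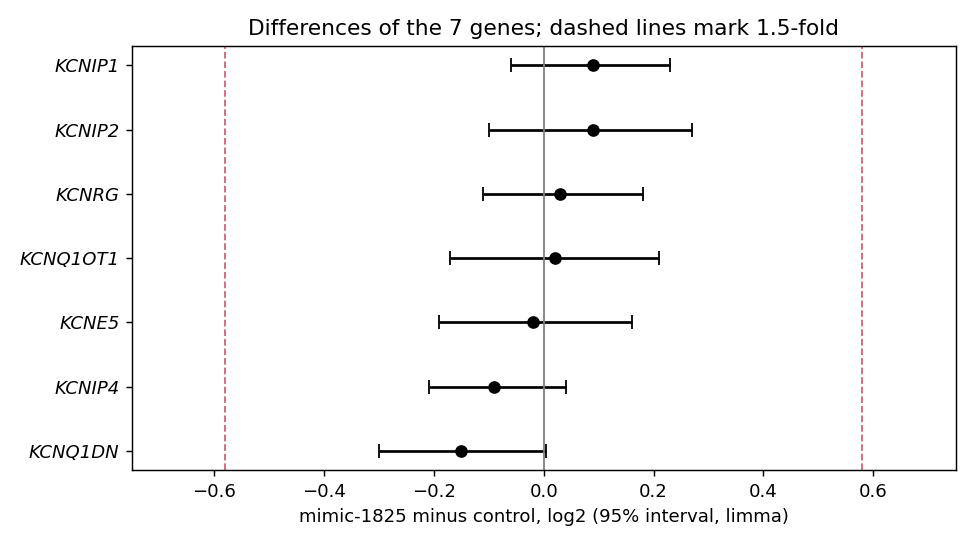
Mimic-1825 minus control on the log2 scale (horizontal axis) for the 7 genes (vertical axis), points with 95% limma intervals, 6 arrays a group. All intervals hold 0 and lie inside the dashed lines at 1.5-fold, 0.58 on the log2 scale; KCNQ1DN is lowest at -0.15.

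The KChIP genes were measured by 4 rows. KCNIP2, best known from the heart, where it supports the fast transient outward current, was measured by transcript cluster 16717816. Its control values were 4.78 at the lowest, 5.14 at the median and 5.38 at the highest, and its mimic values 5.13, 5.21 and 5.27. All 6 mimic arrays lay above the control mean and all 6 within the range of the controls. The log2 difference was 0.09 (SE 0.09, 95% interval -0.10 to 0.27, limma adjusted p = 0.757). It was 0.02 without control replicate 4, the lowest control, and 0.14 without control replicate 6, the highest. KCNIP2 had a second row, cluster 16708518, with a control mean of 3.80 ± 0.11 and a mimic mean of 3.85 ± 0.25 (SD, n = 6 each). That row differed by 0.05 (SE 0.10, limma adjusted p = 0.899), the same sign, also with overlapping groups.

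KCNIP1, the KChIP with strong expression in inhibitory neurons, had the narrowest controls of the 7. Cluster 16992217 read 4.00, 4.01, 3.97, 4.00, 3.97 and 4.01 in control replicates 1 to 6, and 3.85, 4.06, 4.26, 3.94, 4.11 and 4.24 in mimic replicates 1 to 6. Of the mimic arrays 4 lay above every control and 2 below every control, so the mimic group was wider on both sides. The log2 difference of the means was 0.09 (SE 0.07, 95% interval -0.06 to 0.23, limma adjusted p = 0.691). It was 0.05 without either mimic replicate 3 or 6 and 0.13 without mimic replicate 1, whose omission gave an unadjusted limma p of 0.0529 and an adjusted p of 0.543. KCNIP4, a KChIP gene of brain that spans 1220167 bases in RefSeq, was measured by cluster 16974749. It had 3.91, 4.08 and 4.17 as lowest, median and highest control values and 3.91, 3.96 and 4.09 after the mimic. Below the control mean were 5 of the 6 mimic arrays, and 2 of these were below every control. The log2 difference was -0.09 (SE 0.06, 95% interval -0.21 to 0.04, limma adjusted p = 0.617). Within this family of calcium sensors the differences therefore had both signs, and each was smaller than 2 of its standard errors. KCNIP4 overlaps PACRGL in RefSeq, and PACRGL had a log2 difference of 0.10 (SE 0.06, limma adjusted p = 0.546), opposite in sign to KCNIP4.

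KCNE5, the single-span subunit gene on the X chromosome, was measured by cluster 17113286. Controls ran from 4.58 through a median of 4.76 to 5.08, and mimic arrays from 4.63 through 4.81 to 4.93, wholly inside the controls. The log2 difference was -0.02 (SE 0.08, 95% interval -0.19 to 0.16, limma adjusted p = 0.959), with 3 mimic arrays above and 3 below the control mean. Its sign turned when 1 of 3 arrays was left out: the difference was 0.04 without control replicate 2, and 0.01 when either control replicate 4 or mimic replicate 2 was omitted.

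KCNRG, the regulator of channel assembly, was the brightest of the 7 on cluster 16774851. Its lowest, median and highest values were 5.77, 5.92 and 6.03 in controls and 5.77, 5.97 and 6.12 after the mimic. Only mimic replicates 2 and 6, at 6.06 and 6.12, passed the highest control, and the lowest arrays of both groups read 5.77. The log2 difference was 0.03 (SE 0.07, 95% interval -0.11 to 0.18, limma adjusted p = 0.896), and it was 0.001 without mimic replicate 6 and 0.0038 without control replicate 6. In RefSeq KCNRG overlaps TRIM13, a ubiquitin ligase gene, and the long non-coding gene DLEU2, so the signal of its row may not be separate from theirs. TRIM13 went from 7.17 ± 0.07 to 7.28 ± 0.06 (SD, n = 6 each), with all 6 mimic arrays above the control mean and 3 above every control. Its log2 difference of 0.10 did not pass (SE 0.05, limma adjusted p = 0.491). Whether TRIM13 transcripts contribute to the KCNRG row was not tested.

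The 2 non-coding genes of the KCNQ1 region had differences of opposite sign, neither past the threshold. KCNQ1DN, on cluster 16720956, had the largest difference of the 7. Its lowest, median and highest values were 5.30, 5.41 and 5.60 in controls and 5.07, 5.31 and 5.38 after the mimic. All 6 mimic arrays lay below the control mean and 3 below every control, while control replicates 2, 4 and 5, at 5.30, 5.35 and 5.31, stood among the mimic arrays. The means were 5.43 ± 0.13 and 5.28 ± 0.11 (SD, n = 6 each), a log2 difference of -0.15 (SE 0.07, 95% interval -0.30 to 0.004, limma adjusted p = 0.478). The exact permutation test over all assignments of the arrays to 2 groups of 6 gave p = 0.0736 (two-sided), and the unadjusted limma p was 0.0553. Mimic replicate 3, at 5.07, was the lowest array, and without it the difference was -0.10. KCNQ1OT1, on cluster 16734467, had 4.80, 5.10 and 5.27 in controls and 4.96, 5.08 and 5.23 after the mimic. Every mimic array lay inside the range of the controls. Its log2 difference was 0.02 (SE 0.09, 95% interval -0.17 to 0.21, limma adjusted p = 0.954). It was -0.03 with control replicate 5 left out, -0.02 when control replicate 6 was omitted and -0.01 when mimic replicate 4 was. The difference between the 2 genes was not tested.

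Antisense and intronic RNA genes of channel loci, whose hyphenated symbols the pattern left out, were read from 8 named rows. Of the 8 genes, 0 passed with limma (lowest adjusted p = 0.445), 4 had higher and 4 lower means, and 1, CACNA1C-IT3, was lower at an unadjusted p under 0.05, beside 5.40% of all rows. It read 3.48 ± 0.12 in controls and 3.33 ± 0.10 after the mimic (SD, n = 6 each), and did not pass. Control means of the 8 ran from 2.93 to 6.81, and 1 of 8 was at or above the median of all rows, beside 5 of the 7 members.

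Other channel genes outside the pattern, with some partner genes of channels, were read for comparison. They are a mixed list of channel types and not 1 pathway. Of 88 such genes listed, 57 had a named row, 28 with higher and 29 with lower means after the mimic. With limma 0 passed (lowest adjusted p = 0.338), beside 0.0112% of all rows and 0 of the 16098 named rows. At an unadjusted p under 0.05 there were 2 higher and 2 lower of the 57, beside 5.36% and 5.40% of all rows, so the genes named next are examples by smallest p and not results past a threshold. The median size of the difference was 0.05 on the log2 scale, beside 0.09 for the 7 members and 0.07 for all rows. For rows with control means within the range of the members, 3.99 to 5.92, it was 0.08, close to the value of the members. All 57 intervals lay inside 1.5-fold, beside 93.8% of all rows and 15914 of the 16098 named rows. MCOLN3, an endolysosomal cation channel gene, went from 6.28 ± 0.15 to 6.50 ± 0.12 (SD, n = 6 each), a log2 difference of 0.22 with a limma adjusted p of 0.338. TMEM63C, of a family of mechanically activated channels, had a log2 difference of 0.12 and MCUB, a subunit of the mitochondrial calcium uniporter, one of 0.09. ZACN, the zinc-activated channel gene, had -0.21, the cation channel gene TPCN2 of endolysosomes -0.12, and CNGB3, a cyclic nucleotide-gated channel subunit of cone photoreceptors, -0.15. Of the 57, 25 reached the 75th percentile of control means, beside 41.8% of named rows, while 0 of the 7 members did.

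**Figure D3:**
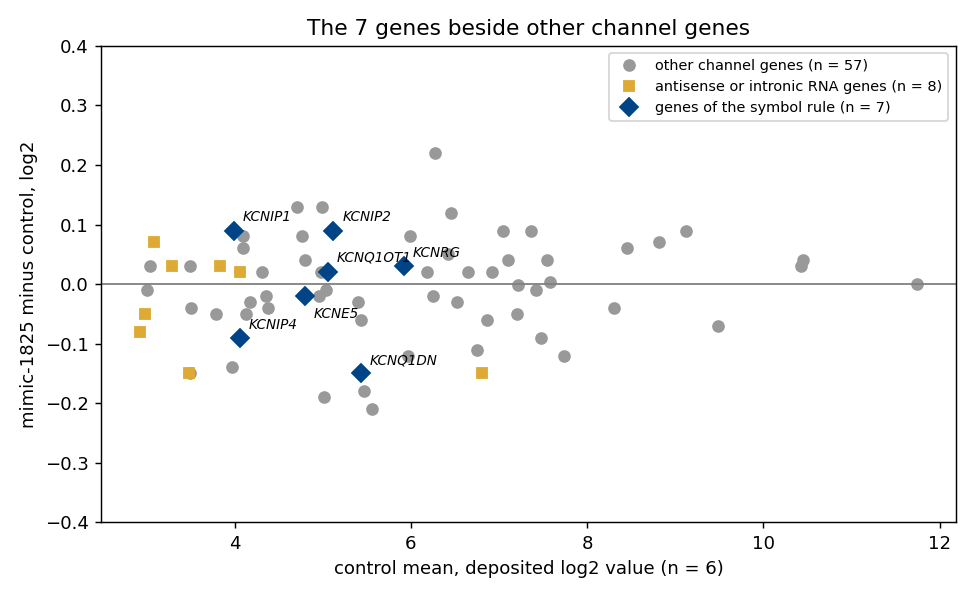
Control mean (horizontal axis, deposited log2 value, n = 6) against mimic-1825 minus control (vertical axis, log2) for the 7 genes of the pattern, 8 antisense or intronic RNA genes and 57 other channel genes. The 7 genes lie between 3.99 and 5.92 and between -0.15 and 0.09, inside the spread of the other channel genes, which runs from -0.21 to 0.22.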

How the data were processed

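Expression was measured on 12 arrays, 6 per group, each with its own values. Per the submitters' processing notes, the authors used Affymetrix Expression Console to make the deposited log2 values. Not given in the sources used here are the version run and the settings of background, normalization and summarisation. The log2 scale was read from the values, which ran from 1.62 to 14.40 with array medians between 4.44 and 4.51. The number of arrays limits the precision.

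Rows were named through the platform annotation: of 53617 rows, 16098 carried a single symbol, 0 carried more than 1 and 37519 had no symbol, and all 16098 gene identifiers were found in RefSeq (GRCh38.p14). Differences were tested with limma 3.58.1 (R 4.3.3; lmFit, then eBayes without a trend or a block) over all rows, two-sided, with Benjamini-Hochberg adjustment. The procedure was tested on simulated data. The simulated differences were larger than any the 7 genes showed, so recovery of differences of their size was not tested. The members, lists and tests were chosen with earlier results of these data known. Genes were named by rule: the 12 members with the highest control mean, the highest of each family, the 10 higher and 10 lower members by smallest p, which together took all 7, and the 3 higher and 3 lower other channel genes by smallest p. Marker genes, genes overlapping a member and CACNA1C-IT3 were added to these after their values were seen. Alternatives were the scaling, a replicate block, each array left out, the prior, the rows tested and the averaging of rows. Same-numbered arrays correlated between -0.11 and 0.08 in their deviations from the group means, so the numbers were not taken as pairs.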

Additional observations from a re-analysis of the deposited data

Results flagged for a closer look

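In the 14 sets of 6 arrays (7 genes in both groups), 1 array stood apart from the rest of its group by Dixon's gap. Chance gives such a gap in about 1 in 20 sets, so 1 among 14 is near that rate. The array was mimic replicate 3 for KCNQ1DN, the lowest at 5.07, where the remaining mimic arrays read 5.28 to 5.38. Without it the log2 difference of KCNQ1DN was -0.10 (limma adjusted p = 0.647), against -0.15 with it.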

How the results depend on the processing

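No member passed the adjusted threshold under any of the 19 alternatives that could be fitted, and the count with intervals inside 1.5-fold was 7 in all 17 run for it. The count of members at or above the reference level, 5, became 1 with the median of named rows as the reference. Leaving out single arrays moved the count lower at an unadjusted p under 0.05 between 0 and 1, that 1 being KCNQ1DN without control replicate 2, 4 or 5 or mimic replicate 1, and the median log2 difference between -0.03 and 0.04. The same fits gave -0.06 to 0.04 for KCNE5 and -0.03 to 0.06 for KCNQ1OT1, whose signs are therefore not settled. The other 5 genes kept their sign in every fit run. With a replicate block KCNQ1DN had -0.15 (limma adjusted p = 0.593) and 0 members passed; over all rows the block took the calls from 6 to 0. Those 6 calls were 0 with any of control replicates 1 to 3 or of mimic replicates 1, 2, 4, 5 and 6 omitted, 2 with control replicate 4 or mimic replicate 3 omitted, 39 with a trend and robust prior, 13 among rows at or above the median and 242 in the brightest 25%, so the share over all rows beside the members is unstable. Adjusted p values of KCNQ1DN ran from 0.34 to 0.647 over its alternatives. With all arrays kept, its unadjusted limma p was 0.0499 among rows at or above the median and 0.0451 with 1 row per named gene. In the brightest 25% of rows no member was left to test. Signal over background is not known for these rows, which limits what a small difference can show.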

Other observations

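Spread between arrays differed between groups for some of the 7 genes, a pattern picked out after the values were seen and not tested. For KCNIP1 the SD was 0.019 in controls and 0.162 after the mimic, a ratio of 8.5, and 0.0298% of all rows had a ratio at least as large in that direction. Its control SD was itself unusual: 0.198% of rows had one as small, while 65.8% had a mimic SD as small as that of KCNIP1. For KCNIP2 the order was the opposite, with an SD of 0.215 in controls and 0.047 after the mimic, a ratio of 4.52 that 0.573% of rows reached in that direction. The remaining 5 genes had ratios between 1.18 and 2.12.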
